A study of Mus musculus with 4 samples.

Results

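The Wnt pathway was followed through 42 genes for its ligands, their receptors and co-receptors, the cytoplasmic and nuclear proteins that carry the signal, and genes that the pathway switches on. They were found as all probe sets whose annotated gene symbol is exactly one of these names. This gave 88 probe sets for 41 genes, of 18193 genes with a probe set of their own, and Tcf7 was not analysed here. Expression was measured on 4 arrays (Affymetrix Mouse Genome 430 2.0), each hybridised with RNA from a pool of 3 mammary tumors of 3 female C57BL/6 mice aged 110 days, taken 14 days after tumor onset. Of these, 2 pools came from mice null for St6gal1, the gene of the enzyme that links sialic acid to N-glycans in the alpha2-6 position, and 2 from wild-type littermates. All mice of both genotypes carried the polyoma virus middle T oncogene (PyV-mT), a tumor-driving transgene for which the labels name no promoter. The study compared 1 null with 1 wild-type pool in each of 2 sets.

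Wnt proteins are secreted, lipid-modified ligands that bind Frizzled receptors. With the co-receptors Lrp5 and Lrp6 they recruit Dishevelled and Axin, which stops the breakdown of beta-catenin and lets it act with Tcf and Lef factors on target genes. Some ligands, Wnt5a among them, act largely through Ror2 and Ryk without beta-catenin. Many targets are brakes: Axin2, Nkd1, Notum, Rnf43 and Znrf3 each damp the signal, and R-spondins release the last pair's brake through Lgr4 and Lgr5. In the mammary gland Wnt4 acts downstream of progesterone in ductal side branching, and Lgr5 marks a part of the basal epithelium.

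The arrays had nearly the same median intensity, 588 and 591 for the null and 619 and 593 for the wild-type pools. St6gal1 itself read 2337 and 3642 in the null pools and 2330 and 2796 in the wild-type pools on its brighter probe set (log2 ratio 0.19 ± 0.16, SE, n = 2 pools per genotype, limma adjusted p = 0.554). No loss of this transcript was thus seen in the null pools. The labels do not say which part of the gene was deleted, a probe set outside that part checks nothing, and every direction given here relies on the labels. Gapdh gave a ratio of 3' to 5' signal, a measure of RNA degradation, of 0.873 (null) and 0.869 (wild type) in set 1, but of 2.13 (null) and 1.57 (wild type) in set 2. The same ratio for beta-actin was 1.53 (null) and 1.63 (wild type) in set 1, and 2.12 (null) and 1.96 (wild type) in set 2. Luminal epithelial keratins and other luminal markers were present in the tumors of both genotypes, with 0 of 12 measured genes below the unspecific level on all arrays.

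Signals were first set against an unspecific level, the highest signal, 585, of the 15 probe sets for Y-linked genes, since all mice were female. Of the 88 probe sets, 41 read above it on all 4 arrays, 16 on some and 31 on none. Counted by gene, 25 genes had a probe set above that level on all 4 arrays and 6 on some arrays only (Wnt6, Wnt7a, Wnt11, Fzd8, Lef1 and Axin2). For the other 10, Wnt2, Wnt10a, Wnt10b, Wnt16, Rspo1, Rspo3, Ror2, Dvl3, Nkd1 and Notum, no array rose above it. Both R-spondin genes were thus within the unspecific level, with highest signals of 434.5 for Rspo1 and 267.9 for Rspo3. Without Uba1y, which has an X-linked relative, the level would be 565 and Wnt10a and Ror2 would pass it on some array.

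**Figure D1:**
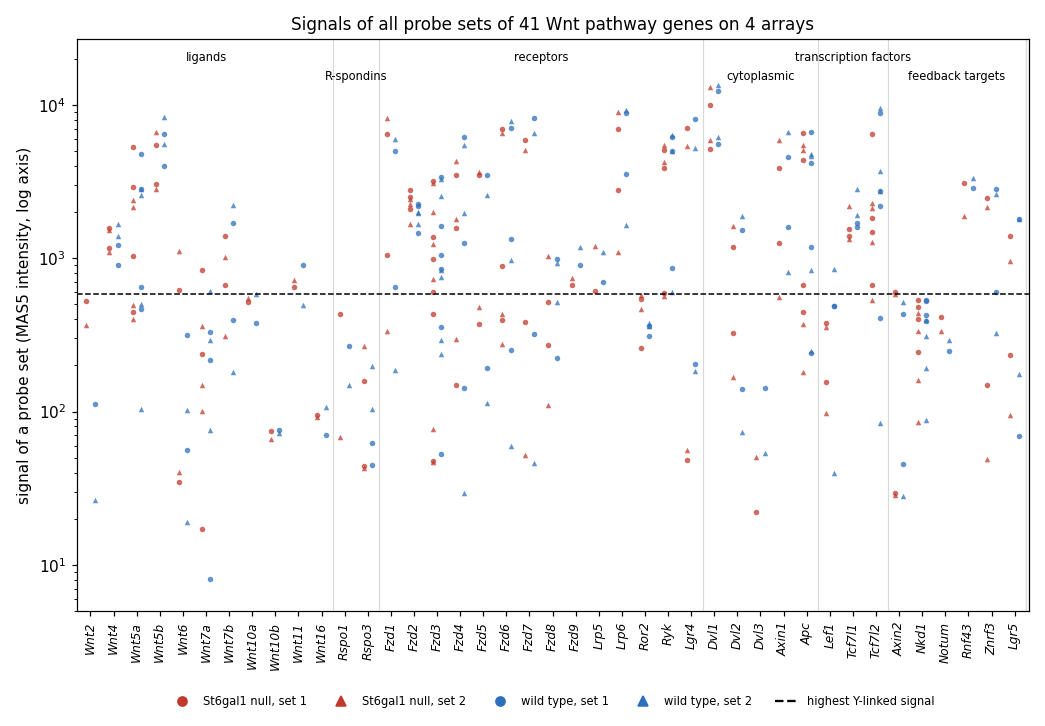
Signals of the 88 probe sets (MAS5 intensity, log axis) by gene and role, with the St6gal1 null pools left of the wild-type pools, circles for set 1 and triangles for set 2; each point is 1 probe set on 1 array, and points of one gene on one array are its different probe sets. The dashed line is the highest Y-linked signal, 585. Wnt2, Wnt10a, Wnt10b, Wnt16, both R-spondins, Ror2, Dvl3, Nkd1 and Notum lie wholly below it, Wnt10a and Ror2 only just. Heights of different probe sets are not comparable with each other.

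Null and wild-type pools were then compared within their sets, on the scale of log2(intensity + 44), with limma and the set as a block. Tcf7l2, Fzd4, Fzd7 and Wnt5b fell in the null tumors and Fzd1 rose. Of the 47 probe sets bright enough to be tested, 7 passed the threshold of 0.05, 1 higher and 6 lower. That is 14.9%, beside 7.30% of all 22519 probe sets tested. Lower calls made up 12.8% of the members' probe sets against 3.25% of all, and higher calls 2.13% against 4.05%. Of the 6 lower calls 3 are probe sets of the same gene, Tcf7l2, so that the calls stand for 4 lower genes and 1 higher gene of 27 tested. These calls rest on both the set block and the intensity trend of the fit: without the block limma called 0 of the 47 (5 at an unadjusted p under 0.05) and 0 of all 22519 (1280), and without the trend 0 of the 47 (14) and 0 of all (3486). Dropping either term leaves the log2 ratios themselves unchanged in this balanced design, so their direction there checks nothing. In each set alone all 7 had the direction of their call. That is no separate check, since each call was made from these same set ratios. With the block removed, leaving out the null pool of set 1 kept a single call, for Tcf7l2, and leaving out any other pool kept 0.

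**Figure D2:**
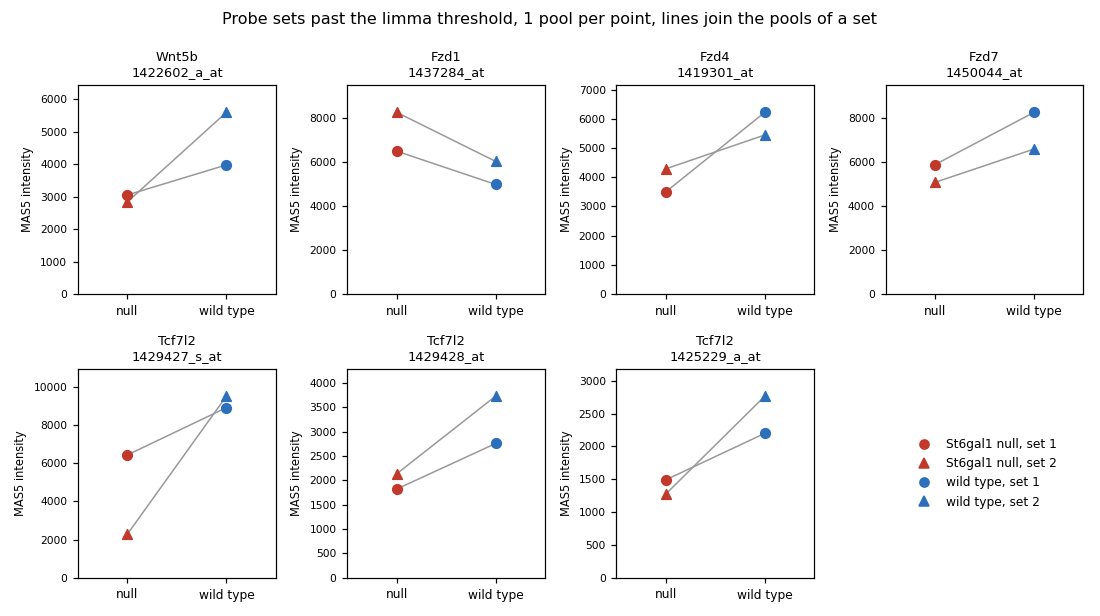
MAS5 intensity (y axis, starting at 0) of the 7 probe sets past the limma threshold, with the null pools on the left and the wild-type pools on the right; each point is 1 pool, and a line joins the pools of a set. Fzd1 is higher in both null pools, and the other 6 probe sets are lower in both null pools than in either wild-type pool.

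Tcf7l2, which encodes the transcription factor TCF4 that partners beta-catenin, was the member with the most calls. Its probe set 1429427_s_at read 6432 and 2291 in the null pools of sets 1 and 2, against 8902 and 9506 in the wild-type pools. The log2 ratio was -1.25 ± 0.23 (SE, adjusted p = 0.00404), but it was -0.47 in set 1 and -2.03 in set 2. Whether RNA quality had a part in this gap was not tested. With no block the ratio was -0.51 without the null pool of set 2 and -1.99 without that of set 1. The other calls for this gene were closer between the sets. Probe set 1429428_at read 1820 and 2133 in the null pools and 2755 and 3727 in the wild-type pools (-0.69 ± 0.16, adjusted p = 0.0152). Probe set 1425229_a_at read 1492 and 1276 in the null pools and 2200 and 2766 in the wild-type pools (-0.82 ± 0.20, adjusted p = 0.0207). The groups do not overlap on any of the 3. The remaining, dim probe set, 1426639_a_at, went the other way, with 670 and 535 in the null pools and 407 and 84.3 in the wild-type pools, and lay below the filter. Only the null pool of set 1 was above the unspecific level, so no fold is given.

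Tcf7l1, a Tcf factor that mostly represses Wnt targets, had ratios of -0.23 ± 0.18 and -0.34 ± 0.21 on its 2 probe sets and did not pass (adjusted p = 0.516 and 0.396). Its signals on 1450117_at were 1388 and 1341 in the null pools and 1593 and 1905 in the wild-type pools, without overlap. Lef1, a Tcf-family factor that is itself a Wnt target in many tissues, read 376 and 355 in the null pools and 489 and 857 in the wild-type pools on its brighter probe set. Only the wild-type pool of set 2 was above the unspecific level, so no fold is given. All 5 tested probe sets of the transcription factors were lower in the null pool of both sets, as were 34.9% of all probe sets tested. They stand for only 2 genes, with 3 probe sets of Tcf7l2 and 2 of Tcf7l1.

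Among receptors, Frizzled genes went both ways. Fzd1 read 6494 and 8259 in the null pools and 4981 and 6028 in the wild-type pools on probe set 1437284_at, a rise of 1.33-fold (log2 0.42 ± 0.10, adjusted p = 0.0261). The dimmer probe set of Fzd1 also read higher in the null pool of each set, 1051 against 649 and 336 against 187, and was not tested. Both values of set 2 lie within the unspecific level, so that set shows no difference on this probe set. Fzd4, the receptor for Norrin as well as for Wnt proteins in vessels, read 3503 and 4291 in the null pools and 6228 and 5451 in the wild-type pools on 1419301_at (log2 -0.58 ± 0.13, adjusted p = 0.0142). Its second tested probe set did not follow: 1434756_at read 1574 and 1811 in the null pools and 1259 and 1980 in the wild-type pools, with a ratio of 0.09 ± 0.21. Fzd7, a Frizzled with a known role in mammary stem cells and basal-like cancers, read 5867 and 5063 in the null pools and 8239 and 6573 in the wild-type pools (log2 -0.43 ± 0.11, adjusted p = 0.0220). Its dimmer probe set stayed within the unspecific level.

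Other Frizzled genes did not pass. Fzd2 was higher in both null pools on probe set 1418534_at, with 2086 and 2260 against 1468 and 1684 in the wild-type pools (0.45 ± 0.18, adjusted p = 0.171). Its other probe sets had ratios of 0.30 and -0.03. Fzd6, which acts mainly in planar cell polarity, was near the threshold on 1448662_at, with 886 and 274 in the null pools and 1333 and 981 in the wild-type pools (-1.13 ± 0.35, adjusted p = 0.0670). Its null pool of set 2 lay within the unspecific level on this probe set. The ratio was -0.57 in set 1 and -1.69 in set 2, and with no block it was -0.35 without the null pool of set 2 and -1.90 without that of set 1. Its brighter probe set had a ratio of only -0.13 ± 0.11, with 6976 and 6568 in the null pools and 7042 and 7830 in the wild-type pools. Fzd9 read 669 and 745 in the null pools and 898 and 1178 in the wild-type pools (-0.52 ± 0.29, adjusted p = 0.356). The tested probe set of Fzd5 had a ratio of 0.24, that of Fzd8 -0.36, and the 4 of Fzd3 ranged from -0.33 to 0.30.

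The co-receptors had no call. Lrp5 had a ratio of -0.03 ± 0.29, and Lrp6 had -0.19 ± 0.10 and -0.46 ± 0.18 on its 2 probe sets (adjusted p = 0.341 and 0.146). Ryk, a receptor with an inactive kinase that binds Wnt proteins, was below both wild-type pools in both null pools on all 3 of its probe sets. On the brightest of them it read 5083 and 5520 in the null pools and 6169 and 6389 in the wild-type pools (-0.24 ± 0.11, adjusted p = 0.213), and none of the 3 passed. Ror2, a receptor tyrosine kinase for Wnt5a, read 545 and 578 in the null pools and 363 and 379 in the wild-type pools, all within the unspecific level, so no difference was shown. Lgr4, a receptor for R-spondins, read 7038 and 5399 in the null pools and 8053 and 5255 in the wild-type pools (-0.08 ± 0.11). Of the 23 receptor probe sets tested, 4 were higher and 13 lower in both sets, and the median over 13 genes was -0.13.

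Of the ligands, only Wnt5b had a call. It is best known for signalling without beta-catenin, and its probe set 1422602_a_at read 3048 and 2838 in the null pools and 3973 and 5590 in the wild-type pools (log2 -0.67 ± 0.15, adjusted p = 0.0130). The other probe set, 1439373_x_at, went the same way by less, with 5512 and 6615 in the null pools and 6479 and 8376 in the wild-type pools (-0.29 ± 0.10, adjusted p = 0.123). Its groups overlap across sets, although the null pool was lower in each set. Wnt7b, an epithelial ligand, read 1396 and 1020 in the null pools and 1689 and 2227 in the wild-type pools (-0.68 ± 0.23, adjusted p = 0.102). Its dimmer probe set read higher in the null pool of each set, with 666 and 313 in the null pools and 397 and 182 in the wild-type pools. Only the null pool of set 1 was above the unspecific level on it.

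Wnt4 and Wnt5a did not pass. Wnt4 read 1580 and 1533 in the null pools and 1222 and 1676 in the wild-type pools, higher in set 1 and lower in set 2 (0.12 ± 0.22, adjusted p = 0.824). Wnt5a read 5292 and 2415 in the null pools and 4785 and 2582 in the wild-type pools on its brightest probe set (0.02 ± 0.13, adjusted p = 0.949). One of its dim probe sets, 1437673_at, read 1029 and 493 in the null pools and 467 and 103 in the wild-type pools, with only the null pool of set 1 above the unspecific level. Another, 1456976_at, was lower instead, with 447 and 399 in the null pools and 654 and 504 in the wild-type pools. Wnt11 read 653 and 725 in the null pools and 899 and 498 in the wild-type pools, with opposite directions in the 2 sets.

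Among the dim ligands, Wnt6 and Wnt2 read higher in both null pools. Wnt6 read 621 and 1109 in the null pools and 316 and 102 in the wild-type pools, at least 1.39-fold higher. Its second probe set read at most 55.7 on all arrays. Wnt2, a ligand known from stromal and vascular cells, read 530 and 365 in the null pools and 113 and 26.5 in the wild-type pools. All 4 values of Wnt2 lie within the unspecific level, so no fold is given. Tested without the filter on low values, Wnt6 did not pass (limma adjusted p = 0.121).

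The remaining ligands showed no common direction. Wnt7a read 834 and 361 in the null pools and 330 and 609 in the wild-type pools on its brightest probe set, higher in set 1 and lower in set 2. Within the unspecific level, Wnt10a read 521 and 547 in the null pools and 379 and 585 in the wild-type pools. Wnt10b ranged from 66.6 to 76.0 over all arrays and Wnt16 from 70.0 to 107.2.

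In the cytoplasm 0 of 8 probe sets passed (1 higher and 6 lower in both sets). Dvl1, a Dishevelled adaptor, read 10008 and 13083 in the null pools and 12304 and 13481 in the wild-type pools (-0.17 ± 0.10, adjusted p = 0.348). Dvl2 read 1191 and 1620 in the null pools and 1521 and 1897 in the wild-type pools (-0.28 ± 0.21). Dvl3 stayed within the unspecific level, at most 142.3. Axin1, the scaffold of the beta-catenin destruction complex, had ratios of -0.20 and -0.42. Apc, the tumor suppressor of the same complex, read 6542 and 5056 in the null pools and 6636 and 4674 in the wild-type pools on its brightest probe set (0.05 ± 0.11). A dimmer one, 1450056_at, read 665 and 373 in the null pools and 1188 and 839 in the wild-type pools (-0.94 ± 0.33, adjusted p = 0.109). The null pool of set 2 lay within the unspecific level on it.

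Target genes gave no call. Axin2, the most widely used readout of beta-catenin signalling, read 603 and 582 in the null pools and 432 and 520 in the wild-type pools on its brighter probe set, with ratios of 0.44 in set 1 and 0.15 in set 2. Only the null pool of set 1 was above the unspecific level, so no fold is given. Lgr5 read 1404 and 961 in the null pools and 1797 and 1793 in the wild-type pools (-0.61 ± 0.22, adjusted p = 0.129), without overlap. Rnf43, a membrane ubiquitin ligase that removes Frizzled receptors, read 3077 and 1884 in the null pools and 2869 and 3360 in the wild-type pools, with opposite signs in the 2 sets (-0.36 ± 0.19, adjusted p = 0.322). Its homolog Znrf3 read 2470 and 2162 in the null pools and 2835 and 2617 in the wild-type pools on the probe set tested (-0.23 ± 0.16, adjusted p = 0.449). The other Znrf3 probe set, 1437646_at, read 148 and 49.3 in the null pools and 601 and 324 in the wild-type pools, and only 1 of these values exceeded the unspecific level. Nkd1, a Dishevelled inhibitor, and Notum, which strips the lipid from Wnt proteins, stayed within that level on all arrays, with highest signals of 531.6 and 411.7. Of 12 target probe sets 9 were too dim to be tested.

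The direction of the members within each set was also counted. In set 1, 35 of the 47 tested probe sets were lower and 12 higher in the null pool, and in set 2, 36 were lower and 11 higher. In both sets 29 were lower (61.7%, against 34.9% of all probe sets tested) and 5 higher (10.6% against 28.4%). Both null pools read below both wild-type pools for 19 probe sets (40.4% against 16.9%) and above both for 4 (8.51% against 15.1%). Probe sets of one gene count separately in these shares, and several genes have more than 1. With 1 probe set per gene, the median log2 ratio over the 27 genes was -0.20 (-0.22 in set 1 and -0.17 in set 2), against -0.01 over all 11514 genes tested. No test of these shares and medians was made.

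**Figure D3:**
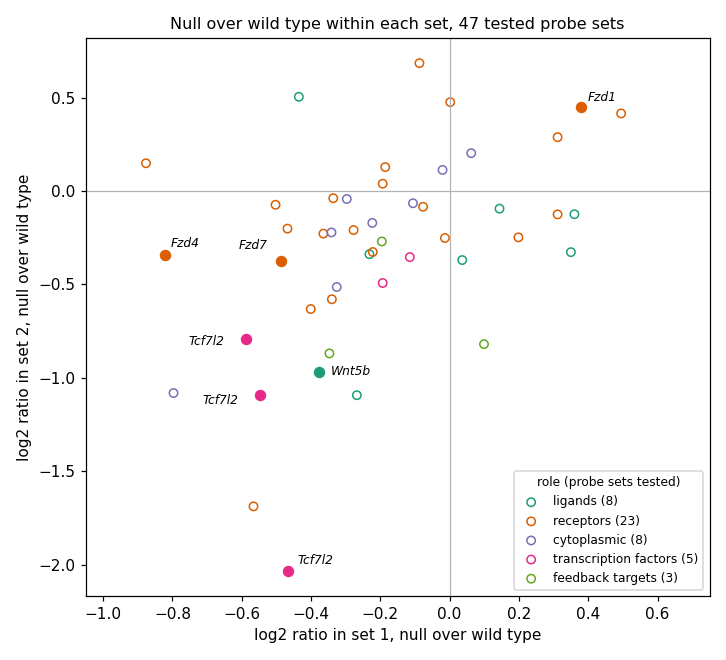
Log2 ratio of null over wild type in set 1 (x axis) and set 2 (y axis) for the 47 tested probe sets, coloured by role; filled points passed the limma threshold and carry their gene's name. Most points lie at the lower left, where 29 probe sets are lower in the null pool of both sets, and Fzd1 is the only filled point in the upper right.

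Several probe sets were available for many of these genes. Of the 14 genes with more than 1 probe set tested, 8 had all of them lower (Wnt5b, Fzd6, Lrp6, Ryk, Dvl1, Axin1, Tcf7l1 and Tcf7l2). Wnt4 had both higher, and 5 had ratios of both signs (Wnt5a, Fzd2, Fzd3, Fzd4 and Apc). The widest gap was in Apc, from -0.94 to 0.13, followed by Fzd6, from -1.13 to -0.13. For Fzd4 the call thus rests on 1 of 2 tested probe sets, whereas for Tcf7l2 all 3 passed. Probe sets marked _s_at or _x_at may also bind related transcripts.

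**Figure D4:**
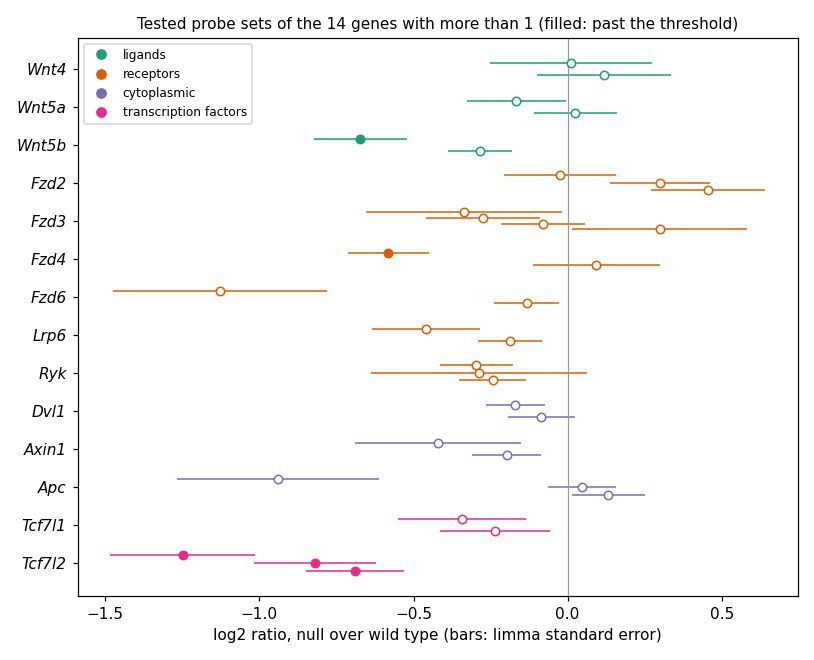
Log2 ratio of null over wild type for each tested probe set of the 14 genes with more than 1, with bars for limma's standard error; filled points passed the threshold. The 3 probe sets of Tcf7l2 lie between -1.25 and -0.69, while those of Apc and Fzd4 fall on both sides of 0.

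Promoter windows of the genes with calls are shown, for Wnt5b only the 1 of its 3 that holds a match to the core searched for. They were taken from RefSeq (build GRCm38.p6), which gave 36 windows for 27 of the 42 genes, each from 250 bases before to 50 bases after a transcription start. The Tcf and Lef core CTTTGAT was searched on both strands, where its reverse complement reads ATCAAAG. Capitals mark a match. The core stood in 2 of the 36 windows (5.56%), 1 of Wnt5b and 1 of Wnt11, and in 3.73% of all 32851 windows. In Wnt5b it begins 71 bases before 1 of its 3 starts. The 2 starts of Tcf7l2 differ in base composition, with 70.0% G and C at the first and 42% at the second, against a median of 52.7% over all windows. A match is a description of letters and not a binding site, and the probe sets do not tell from which start a transcript came.
Wnt5b (chr6:119449337-119449636, minus strand): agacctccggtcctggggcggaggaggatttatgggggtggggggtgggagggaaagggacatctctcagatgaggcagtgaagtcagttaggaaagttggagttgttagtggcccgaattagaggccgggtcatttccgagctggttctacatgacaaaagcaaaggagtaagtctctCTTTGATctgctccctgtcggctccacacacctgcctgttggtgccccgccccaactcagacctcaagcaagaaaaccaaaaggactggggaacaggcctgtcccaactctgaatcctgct
Tcf7l2 (chr19:55741560-55741859, plus strand): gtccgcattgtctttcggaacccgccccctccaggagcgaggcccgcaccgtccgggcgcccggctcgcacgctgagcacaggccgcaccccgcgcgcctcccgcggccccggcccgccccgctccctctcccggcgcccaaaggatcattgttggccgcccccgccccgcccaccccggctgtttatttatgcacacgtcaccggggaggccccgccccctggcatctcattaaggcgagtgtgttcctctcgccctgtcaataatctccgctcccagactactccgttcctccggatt
Tcf7l2 (chr19:55895071-55895370, plus strand): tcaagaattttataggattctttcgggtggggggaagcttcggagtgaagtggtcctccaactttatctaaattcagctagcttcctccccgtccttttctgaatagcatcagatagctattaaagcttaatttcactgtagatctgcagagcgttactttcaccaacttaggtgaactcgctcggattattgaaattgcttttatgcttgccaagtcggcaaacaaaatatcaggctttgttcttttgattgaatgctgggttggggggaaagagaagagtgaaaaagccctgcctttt
Fzd1 (chr5:4758167-4758466, minus strand): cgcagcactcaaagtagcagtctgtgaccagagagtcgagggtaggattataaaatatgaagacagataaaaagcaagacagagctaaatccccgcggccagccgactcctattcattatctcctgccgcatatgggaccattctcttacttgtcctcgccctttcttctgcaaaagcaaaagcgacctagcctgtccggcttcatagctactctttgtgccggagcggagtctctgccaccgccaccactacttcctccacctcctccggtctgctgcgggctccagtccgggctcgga
Fzd4 (chr7:89404116-89404415, plus strand): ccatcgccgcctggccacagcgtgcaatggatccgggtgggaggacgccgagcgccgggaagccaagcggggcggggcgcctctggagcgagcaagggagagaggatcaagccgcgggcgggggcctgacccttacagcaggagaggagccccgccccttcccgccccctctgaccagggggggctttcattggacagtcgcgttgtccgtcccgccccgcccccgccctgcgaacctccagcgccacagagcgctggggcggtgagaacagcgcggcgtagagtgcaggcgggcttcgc
Fzd7 (chr1:59481897-59482196, plus strand): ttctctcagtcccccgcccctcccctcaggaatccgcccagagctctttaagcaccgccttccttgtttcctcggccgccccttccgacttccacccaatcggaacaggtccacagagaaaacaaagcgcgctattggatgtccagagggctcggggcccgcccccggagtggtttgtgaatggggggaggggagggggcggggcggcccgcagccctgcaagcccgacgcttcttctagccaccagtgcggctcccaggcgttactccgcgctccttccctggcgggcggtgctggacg

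The other genes of the pathway were taken from a separate list of 75 genes, of which 74 had probe sets and 58 could be tested. Of their 109 tested probe sets 5 were called higher and 11 lower, where 4.05% of all tested probe sets were called higher and 3.25% lower. The median over genes was -0.06. The secreted inhibitors made up 7 of the 11 lower calls: Wif1, Sfrp1 (4 probe sets), Sfrp2 and Sostdc1, while Sfrp4 rose. Wif1, which binds Wnt proteins, read 651 and 671 in the null pools and 2390 and 2458 in the wild-type pools. Single probe sets fell for 4 further genes, while each gene's other tested probe sets did not pass. For Tle1, a co-repressor that binds Tcf factors, the ratio was -0.72 ± 0.12 on the called probe set and -0.06 ± 0.13 on the other. For Lgr6, an R-spondin receptor, it was -0.34 ± 0.10 on the called probe set and 0.05 ± 0.18 on the other. The called probe sets of the kinase genes Gsk3b and Csnk1d fell by 0.38 and 0.60 on the log2 scale, unevenly between the sets. For Gsk3b the ratio was -0.15 in set 1 and -0.60 in set 2, and for Csnk1d it was -1.10 and -0.10. On both probe sets the null and wild-type pools overlap across sets.

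Among the target genes of that list, calls were all upward. Apcdd1, which encodes a membrane inhibitor of Wnt signalling and is a known target, read 1783 and 1983 in the null pools and 648 and 814 in the wild-type pools (1.32 ± 0.24, limma adjusted p = 0.00333). That was 1 of its 4 tested probe sets, and the others ranged from -0.18 to 0.57 without a call. Tnfrsf19, the receptor TROY, read 5962 and 5684 in the null pools and 2751 and 3497 in the wild-type pools (0.90 ± 0.13). Ccnd1, which encodes cyclin D1 and answers to many pathways besides Wnt, rose on 2 probe sets, by 0.54 ± 0.08 on the one that differed most. Of 24 tested probe sets of this target list 4 were called higher and 0 lower. By direction alone, 8 of the 24 were higher and 10 lower in both sets, and the median over 13 genes was -0.06. Sp5 and Ascl2 stayed within the unspecific level.

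Markers of the cell types in the tumors moved with the genotype too. Here rose and fell mean limma calls, made upward for 4.05% and downward for 3.25% of all probe sets tested. By direction alone, 28.4% of all were higher and 34.9% lower in both sets. Of 22 tested fibroblast probe sets all 22 rose, and the summed signal of 15 fibroblast markers was 452401 and 519920 in the null pools and 213770 and 236150 in the wild-type pools. Of 17 basal and myoepithelial probe sets 7 fell and 0 rose, with sums of 179504 and 184916 in the null pools and 218068 and 218699 in the wild-type pools. In both sets 14 of these 17 were lower and 1 higher. Adipocyte markers rose on 5 of 6 probe sets, with sums of 61475 and 54671 in the null pools and 25099 and 22536 in the wild-type pools. Endothelial and pericyte markers rose on 3 of 11 probe sets, with sums of 24068 and 25532 in the null pools and 14913 and 15628 in the wild-type pools. In both sets 9 of these 11 were higher and 1 lower. Luminal markers rose on 4 and fell on 1 of 20, with sums of 533144 and 548790 in the null pools and 519768 and 482491 in the wild-type pools. In both sets 7 of these 20 were higher and 11 lower. Skeletal muscle markers rose on 3 of 9 probe sets, and 6 of these 9 were higher and 0 lower in both sets. These counts are partly made by the filter. For Ckm, which is 1 of the 3 calls, Atp2a1 and Myh4, both wild-type pools read within the unspecific level. Their probe sets were bright enough to be tested only through the null pools. Macrophage markers rose on 2 and fell on 1 of 9, and nerve markers fell on 2 of 10. Of the skin and hair markers 0 of 2 tested probe sets passed, and Krt1, Krt15 and Krt25 stayed within the unspecific level. The part of these cell types in the changes of Fzd1, Fzd4, Fzd7, Tcf7l2 and Wnt5b was not tested, and in these tumor pools fewer cells of a type and less RNA per cell cannot be told apart.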

How the data were processed

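The 4 arrays, 2 pools per genotype, were deposited by the authors as linear intensities made with MAS5, per the submitters' processing notes; no version is named. After trimming 2% at each end every array averaged 2500.01, so the values were kept as deposited. Of 45101 probe sets 64 controls were removed; of the other 45037, 34945 have 1 annotated symbol, 932 several and 9160 none. By ID, 34741 matched RefSeq and 0 symbols changed. There were 0 unmapped columns.

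Tests used log2(intensity + 44), where 44 is the 10th percentile; folds on this scale understate changes of dim genes. The 22519 probe sets whose mean reached the median of 591 entered limma 3.58.1 (R 4.3.3; lmFit, eBayes with intensity trend; set and genotype as terms; Benjamini-Hochberg adjustment over all, threshold 0.05; 1 residual and 13 prior degrees of freedom). The sets come from the series' design text, and deviations from the genotype means correlated at 0.605 within them; with 2 pools per genotype both sets must give this figure. Exact permutation of 2 against 2 pools cannot go below a two-sided p of 0.333, and the number of arrays limits precision. Where both pools of one genotype read at or below 585 and both of the other above it, the fold is a bound against that level from mean log2 values. Medians use the probe set of each gene with the highest mean.

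The members and lists were chosen with earlier results of these data known. Named in full were members with a call and, per role, up to 3 with the largest ratios of one sign in both sets; further values were chosen after they were seen. On simulated data with known changes the share of false calls was above the threshold in each run. Alternatives were other scalings, filters, pseudocounts and terms, and pools left out.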

Additional observations from a re-analysis of the deposited data

How the results depend on the processing

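The 7 calls among the members, 1 higher and 6 lower, were all kept under quantile and cyclic loess normalization, without a filter, with a filter at the highest Y-linked signal, without a pseudocount, with one at the 25th percentile and with a filter on the mean log2 value. The last alternative, and the level without Uba1y (which moved the probe sets above it on at least 1 array to 59 from 57), were chosen after seeing the data. With no replicate block, so without the pairing of pools by set, limma called 0 member probe sets higher and 0 lower, 0 of the other pathway genes and 0 of all probe sets tested, and without the intensity trend also 0 in each. At an unadjusted p under 0.05 the fit without the block had 0, 5, 15 and 1280, and that without the trend 2, 12, 23 and 3486. With 1 pool left out as well, which can only be fitted with no block, all calls ranged from 4 to 19 without a null pool and from 8 to 27 without a wild-type pool, lower members from 0 to 1, and higher members and other pathway genes stayed at 0. The members' median there was -0.32 to -0.14 without a null and -0.27 to -0.20 without a wild-type pool. It was -0.081 without the filter on low values and -0.28 with the mean over a gene's probe sets. Over the named members' probe sets, 191 values under alternatives kept direction and side of the threshold (or, untested, stayed within the spread of the sets). Another 41 lost significance, all of them among the 7 probe sets with a call. All 7 lost it without the block, and all 7 without the trend. The 191 are no measure of how firm the calls are, since they include probe sets that had no call to lose. They also include values of each set alone, and members without a call were named for having one sign in both sets. A further 2 values changed sign, both for Axin1 probe set 1426967_at with 1 pool left out. Its ratio there ranged from -0.98 to 0.14 (0.047 without the wild-type pool of set 1, 0.14 without the null pool of set 2). The cause was not tested. Dim signals left 3 of 3 R-spondin, 9 of 12 target and 12 of 20 ligand probe sets untested.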
